A study of Mus musculus with 12 samples.

Results

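Ephrins and the Eph receptors that bind them were described in ventricles of adult mouse hearts in which a CRISPR activator had been directed at the endogenous transcription factor gene Mef2d. The 10 genes described, Efnb1, Efnb2, Efnb3, Efna1, Efna5, Epha4, Ephb1, Ephb2, Ephb3 and Ephb4, were chosen by symbol from the 22 ephrin and Eph genes in a table of 24390 gene symbols, in part because Efnb3 was already known to be low in the activated hearts. The members were thus selected on values of the activated hearts, and their differences between those hearts and any control are given as a description. No p-values are printed for these differences. Where one is said to be called, this states on which side of the threshold it fell and is not offered as a test. All 10 passed the filter on low values, and all 10 would also have passed it on the 9 control libraries alone.

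The 12 libraries, 3 in each of 4 groups, came from total RNA of cardiac ventricles of C57BL/6 mice aged 8 weeks. TG_AAV hearts carried the Myh6-dCas9VPR transgene, a nuclease-dead Cas9 joined to the VPR activation domains and driven by the promoter of Myh6, which is active in heart muscle cells, and received an AAV9 vector that the labels call TRISPR and name together with Mef2d. TG_saline hearts carried the transgene and received saline. WT_AAV hearts were wild-type and received the vector, and WT_saline hearts were wild-type and received saline. The labels do not say whether the libraries of a group were separate animals, so every error here is the spread between libraries, which may be technical in part.

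Ephrins are ligands held on the cell surface, and they signal between cells that touch. A-type ephrins are anchored by a lipid and bind mostly EphA receptors, whereas B-type ephrins span the membrane and bind mostly EphB receptors and EphA4. The receptors are tyrosine kinases, and both the receptor-bearing cell and the ligand-bearing cell can respond. In blood vessels ephrin-B2 marks arteries and EphB4 marks veins, and in mouse heart muscle ephrin-B1 lies on the lateral membrane of the cells.

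The libraries held 10233281 to 14911986 gene reads each, and those of a group differed by more than counting noise (chi-square per degree of freedom 4.96 to 25.5). Mef2d stood at 1989, 2231 and 1897 normalized counts in TG_AAV hearts, against 833 to 1178 in the 9 control libraries. The libraries TG_AAV 1, WT_AAV 1 and WT_AAV 3 were rich in the atrial transcript Myl7, with more than 1000 normalized counts each. TG_saline 1 and TG_saline 3 had 728 and 258, and every other library had 1.15 to 19.1. Fits without the 3 richest libraries keep TG_saline 1 and TG_saline 3, and leave WT_AAV 2 as the only library of its group. High Xist was seen in 5 libraries and high Ddx3y in the rest, with both kinds in every group. Heart muscle markers were detected in every library, and none of the 10 was at 0. In RNA of whole ventricles, fewer cells of a type and less RNA per cell cannot be told apart.

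Levels are the deposited normalized counts, which are reads divided by a size factor of each library. Differences are log2 differences of the normalized count plus 1, with their standard errors (SE), from a limma fit of all libraries. A gene was called where its Benjamini-Hochberg adjusted p, over 13030 tested genes, was under 0.05.

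Efnb3, which encodes ephrin-B3, a B-type ligand known from the midline of the nervous system as a ligand of EphA4, set the activated hearts apart from every other library. It had 155, 209 and 134 normalized counts in TG_AAV hearts. In the controls it had 1049.7, 772 and 859 in TG_saline hearts, 1367, 1213 and 1033 in WT_AAV hearts and 1345, 1036 and 1074 in WT_saline hearts. The groups did not overlap, and the highest activated library lay far below the lowest control library. The mean was 166 ± 38.6 (SD, n = 3) in TG_AAV hearts and 1083 ± 200 (SD, n = 9) in the controls, which put the activated hearts at 15.4% of the control level, or 6.51-fold lower. The log2 difference was -2.70 (SE 0.14) against the 3 control groups, -2.43 (SE 0.17) against TG_saline and -2.86 (SE 0.17) against WT_AAV. These values rest on 592 reads in the TG_AAV libraries together, against 2735, 3348 and 3106 in TG_saline, WT_AAV and WT_saline. The difference was as large within libraries of like Xist level, with 134 in the TG_AAV library of high Xist against 1033 to 1345 in the control libraries of high Xist.

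In none of the groups with a single component, or with neither, was Efnb3 near that level. The vector went with a log2 difference of -2.43 in transgenic hearts and 0.06 (SE 0.17) in wild-type hearts, and the interaction was -2.50 (SE 0.24). With the transgene alone Efnb3 was 0.37 lower on the log2 scale (difference -0.37, SE 0.17), which did not pass (limma adjusted p = 0.434).

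Efnb1, the gene of ephrin-B1, was near or above its control level in the activated hearts. It had 400.4, 439 and 397 normalized counts in TG_AAV hearts, against 290.0, 342 and 382 in TG_saline hearts, 296, 430.2 and 368 in WT_AAV hearts and 265, 271 and 412 in WT_saline hearts. All 3 TG_AAV libraries lay above all 3 TG_saline libraries, but the wild-type libraries overlapped them. TG_AAV and TG_saline did not overlap for 6 of the 10 genes (Efnb1, Efnb2, Efnb3, Ephb1, Ephb2 and Ephb4). The share over all genes tested is not given here, so nothing is read from this. The log2 difference of Efnb1 from the 3 control groups was 0.30 (SE 0.14) and was not called, though it was without WT_saline 3 (0.37).

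Efnb2, the gene of the arterial ligand ephrin-B2, lay in the lower part of its control range. It had 295, 244 and 256 normalized counts in TG_AAV hearts, against 299.6, 362 and 348 in TG_saline hearts, 259.9, 443 and 412 in WT_AAV hearts and 356, 289.7 and 420.0 in WT_saline hearts. The groups overlapped through WT_AAV 1 and WT_saline 2, and the log2 difference was -0.40 (SE 0.15), which was not called. It was called with DESeq2 (-0.42), without WT_saline 2 (-0.45), without WT_AAV 1 (-0.48) and without the 3 libraries rich in Myl7 (-0.58). Efnb2 moved with endothelial transcripts. Its 3 highest libraries, WT_AAV 2, WT_saline 3 and WT_AAV 3, also had the highest summed level of 12 endothelial markers, 21916, 22313 and 21269 normalized counts, while all other libraries had 15030 to 19437. These 3 are all controls and the highest for Efnb2, so their omission lowers its control level by the choice itself. It left a difference of -0.20 for Efnb2 and 0.46 for Efnb1, whose highest controls, WT_AAV 2 and WT_saline 3, were also omitted. Nothing is read from either shift. The part of the endothelial transcripts in either result was not tested.

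**Figure D1:**
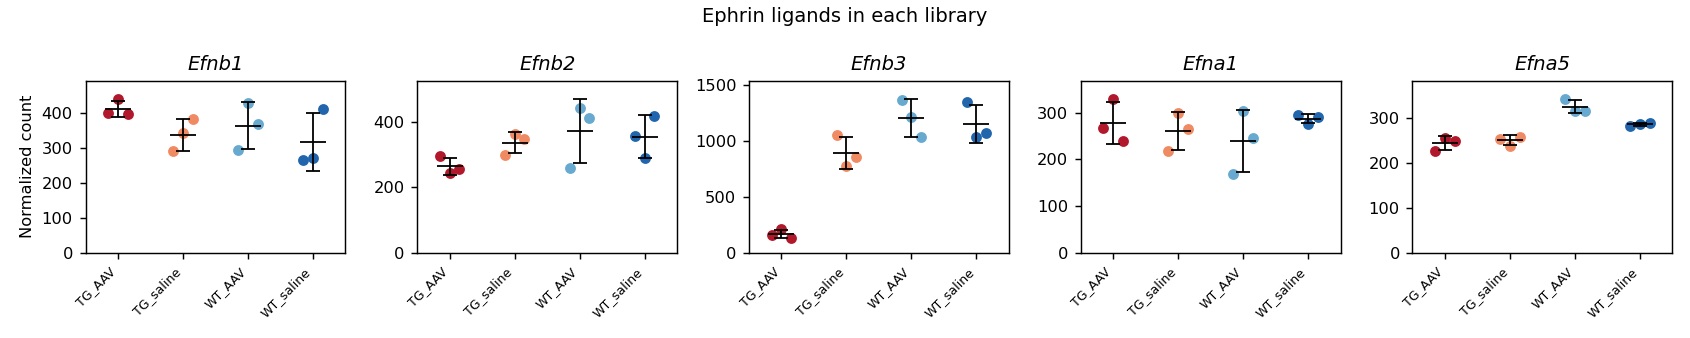
Normalized counts of the 5 ephrin ligands in each library, by group from left to right TG_AAV, TG_saline, WT_AAV and WT_saline; points are libraries, and the bars are the mean and SD of 3 libraries, on linear axes from 0 that differ between genes. Efnb3 lies at 134 to 209 in TG_AAV and at 772 to 1367 in the controls, whereas the other ligands overlap some control library.

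The makeup of the B-type ligands therefore differed. Per kilobase of merged exon, Efnb3 made up 20.9%, 26.1% and 19.4% of the summed level of the 3 B-type ligands in TG_AAV hearts. Its share was 61.5% ± 6.11 in TG_saline, 66.6% ± 7.12 in WT_AAV and 67.9% ± 6.08 in WT_saline hearts (SD, n = 3 each). Efnb1 made up 54.1% ± 1.71 in TG_AAV hearts, against 23.0% ± 3.88 in TG_saline, 19.7% ± 3.41 in WT_AAV and 18.3% ± 4.45 in WT_saline hearts (SD, n = 3 each). The summed level of the B-type ligands was 234 ± 17.0 normalized counts per kilobase in TG_AAV hearts (SD, n = 3) and 519 ± 63.0 in the controls (SD, n = 9, from 423 to 606). The summed level of the 2 A-type ligands was 213 ± 26.7 in TG_AAV hearts and 215 ± 22.4 in the controls, and that of the 4 B-type receptors was 303 ± 11.2 in TG_AAV hearts and 346 ± 37.3 in the controls (SD, n = 3 and 9).

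**Figure D2:**
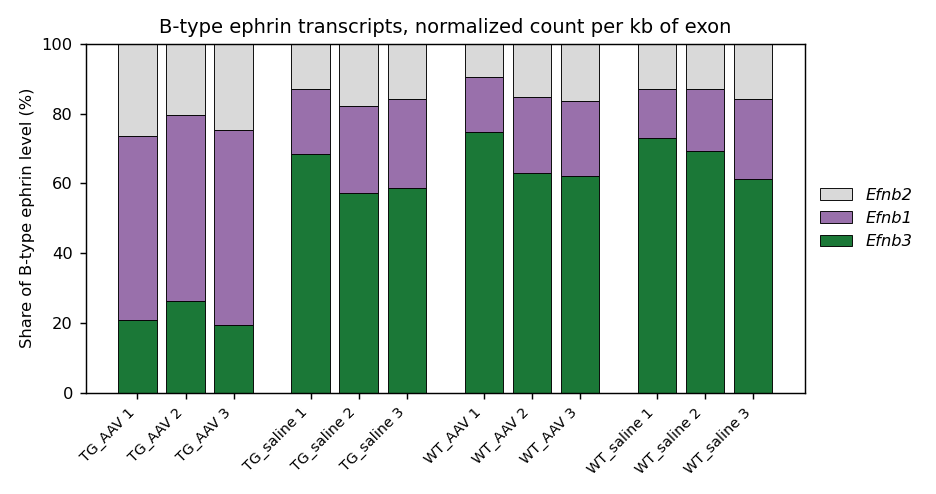
Share of Efnb1, Efnb2 and Efnb3 in the summed level of the 3 B-type ligands, in percent of normalized counts per kilobase of merged exon, 1 stacked bar per library. Efnb3 takes 19.4% to 26.1% in the 3 TG_AAV libraries and is the largest share in all 9 control libraries.

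On the same scale per kilobase, Efnb3 had the highest mean of the 10 genes over the 9 control libraries (340 ± 62.7 normalized counts per kilobase) and the seventh in TG_AAV hearts (52.3 ± 12.1). By group, Efnb3 and Ephb4 averaged 281 and 284 in TG_saline hearts, 378 and 285 in WT_AAV hearts and 362 and 285 in WT_saline hearts, so Efnb3 was the higher of the pair in the wild-type groups only. In the controls together it was followed by Ephb4 (285 ± 32.6), Epha4 (172 ± 28.2), Efna1 (144 ± 24.5), Efnb1 (104 ± 19.0), Efnb2 (74.0 ± 13.1), Efna5 (71.2 ± 8.34), Ephb3 (45.7 ± 6.17), Ephb1 (13.5 ± 3.04) and Ephb2 (1.41 ± 0.584; SD, n = 9 each). Neighbours in this order whose control ranges overlapped were Efnb3 and Ephb4, and each step from Epha4 down to Efna5. Ephb4 stood above Epha4, and Efna5, Ephb3, Ephb1 and Ephb2 stood below one another, with no overlap of their ranges. In TG_AAV hearts Ephb4 was the highest, at 259 ± 4.21 normalized counts per kilobase (SD, n = 3).

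Of the A-type ligands, Efna1, the gene of a ligand of EphA2 found on endothelium, had 267, 329 and 240.3 normalized counts in TG_AAV hearts. The controls had a lowest value of 169, a median of 276 and a highest value of 303, and the log2 difference was 0.09 (SE 0.15), not called. Efna5, an axon guidance ligand that also binds EphB2, had 227, 256 and 249 normalized counts in TG_AAV hearts and 254, 238 and 258 in TG_saline hearts. It had 342, 317 and 316 in WT_AAV hearts and 283, 286 and 289 in WT_saline hearts. All 6 transgenic libraries lay below all 6 wild-type libraries, a split whose share over all genes tested was not counted. Its log2 difference was -0.23 (SE 0.07) against the 3 control groups and -0.41 (SE 0.09) against WT_AAV, and both were called. The call against the 3 control groups was lost without WT_saline 1, TG_saline 1, TG_saline 3 or any TG_AAV library, and without the 3 libraries rich in Myl7. Against TG_saline the difference was not called.

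Among the receptors, Ephb1 was low and Ephb2 high in the activated hearts. The other 3 overlapped their controls, with Epha4 at 76.6%, Ephb3 at 78.3% and Ephb4 at 90.9% of the control mean. Ephb1 encodes a receptor of B-type ephrins. It had 27.7, 35.9 and 36.6 normalized counts in TG_AAV hearts, against 73.5, 85.1 and 102 in TG_saline hearts, 58.6, 90.3 and 90.0 in WT_AAV hearts and 81.1, 79.0 and 129 in WT_saline hearts. No library of TG_AAV reached any control library. The mean was 33.4 ± 4.93 (SD, n = 3) in TG_AAV hearts and 87.6 ± 19.7 (SD, n = 9) in the controls, which put the activated hearts at 38.1% of the control level. The log2 difference was -1.35 (SE 0.19) against the 3 control groups and -1.35 (SE 0.23) against TG_saline. A gene on the opposite strand, Gm26846, overlaps 152 exon bases of Ephb1, of 6487, and as the strand setting of the counting is not given, reads within that stretch cannot be assigned to either gene.

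Ephb2, another receptor of B-type ephrins, was at the low end of what was measured. It had 45.2, 25.9 and 35.8 normalized counts in TG_AAV hearts, against 19.3, 16.6 and 23.5 in TG_saline hearts, 9.20, 15.2 and 24.6 in WT_AAV hearts and 14.4, 6.87 and 8.68 in WT_saline hearts. The lowest TG_AAV library stood just above the highest control library. The mean was 35.6 ± 9.66 (SD, n = 3) in TG_AAV hearts and 15.4 ± 6.38 (SD, n = 9) in the controls, a ratio of 2.32, from 133 reads in TG_AAV and 61, 46 and 27 in TG_saline, WT_AAV and WT_saline. The log2 difference was 1.23 (SE 0.30) against the 3 control groups, and its call was lost without TG_AAV 1 and without TG_AAV 3. Without the 3 libraries rich in Myl7 it was 1.05. Against TG_saline alone it was 0.80 (SE 0.37), not called in the main fit and called under 0 of 24 alternatives. TG_saline itself stood 0.97 (SE 0.37) above WT_saline, and the interaction was 0.18 (SE 0.52), neither of them called.

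The 250 bases before the annotated starts of these 2 genes are shown because they were the receptors that lay outside the control range, and in opposite directions. They are RefSeq sequences on GRCm38.p6, 5′ to 3′ on the strand of the gene, with CpG pairs in capitals. Ephb1 is from chr9:102354694-102354943 and Ephb2 from chr4:136836013-136836262, both on the minus strand.
Ephb1: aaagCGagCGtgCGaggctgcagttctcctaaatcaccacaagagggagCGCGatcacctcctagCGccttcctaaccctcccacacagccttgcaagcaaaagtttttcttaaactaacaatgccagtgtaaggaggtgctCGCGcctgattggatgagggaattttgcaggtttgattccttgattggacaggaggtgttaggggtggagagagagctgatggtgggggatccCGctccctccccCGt
Ephb2: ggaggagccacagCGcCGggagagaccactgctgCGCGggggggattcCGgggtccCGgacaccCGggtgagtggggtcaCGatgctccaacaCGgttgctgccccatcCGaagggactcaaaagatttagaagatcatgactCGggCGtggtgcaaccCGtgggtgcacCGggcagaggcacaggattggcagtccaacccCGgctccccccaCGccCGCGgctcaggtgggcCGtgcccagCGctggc
The Ephb1 stretch was 54% G or C with 10 CpG pairs, and the Ephb2 stretch was 68.4% G or C with 20. The medians of 32851 mouse promoters of this length were 52.4% and 6. RefSeq rows were found for 9 of the 10 genes, in 10 promoters. Efnb3 had no row, so its promoter was not scanned and is not among these. On either strand, GGGCGG, the core of the Sp1 site, was present in 7 of these 10 promoters, both of Efna1 among them, and in 32.74% of all promoters. The 10 were 54% (Ephb1) to 74.8% (Efna5) G or C, all above the median of 52.4%. No comparison with promoters of like G and C content was made, so nothing is read from this share. TATAAA was present in 1 of the 10, that of Efnb2, and in 12.37% of all. The E-box CANNTG was present in 4 of the 10, Ephb2 among them, and in 66.22% of all. The MEF2 motif was found in 0 of the 10 and in 2.919% of all promoters, and the CArG box of SRF in 0 of the 10 and in 1.467% of all. These are matches of letters in a short window and describe no binding.

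The other 3 receptors overlapped their controls. Epha4, which binds ephrins of both types, had 880.3, 897 and 718 normalized counts in TG_AAV hearts, against a lowest value of 857, a median of 1108 and a highest value of 1391 in the controls (log2 difference -0.37, SE 0.14, not called). Ephb3, a receptor of B-type ephrins found on vessels, had 185, 181 and 248 in TG_AAV hearts, against a lowest value of 228, a median of 252 and a highest value of 323 in the controls (log2 difference -0.36, SE 0.13, not called). Ephb4, the venous receptor of ephrin-B2, had 1119, 1124 and 1153 in TG_AAV hearts, against a lowest value of 1042, a median of 1254 and a highest value of 1515 in the controls (log2 difference -0.13, SE 0.10, not called). The TG_AAV libraries lay below the TG_saline libraries (1205, 1259 and 1260) for Ephb4, and the overlap came from WT_AAV 1 (1096) and WT_saline 2 (1042).

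**Figure D3:**
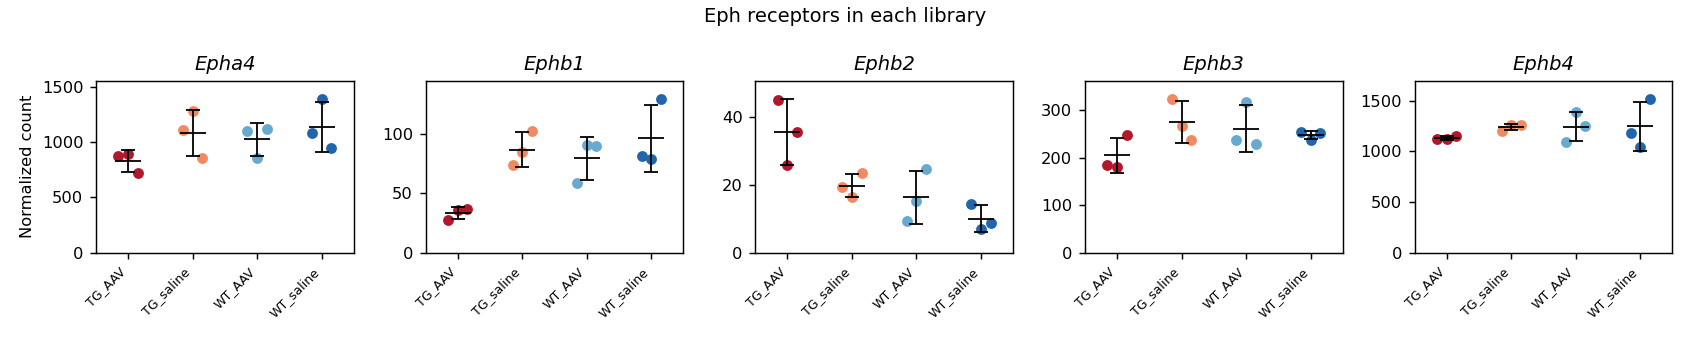
Normalized counts of the 5 Eph receptors in each library, by group from left to right TG_AAV, TG_saline, WT_AAV and WT_saline; points are libraries, and the bars are the mean and SD of 3 libraries, on linear axes from 0 that differ between genes. Ephb1 lies at 27.7 to 36.6 in TG_AAV, below all controls, and Ephb2 at 25.9 to 45.2, above them.

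Counted over the 10 genes, 4 were called between TG_AAV and the 3 control groups. Of these, 1 was higher (Ephb2) and 3 were lower (Efnb3, Ephb1 and Efna5). Of all genes tested 21.7% were called, 12% higher and 9.69% lower. DESeq2 called 6 of the 10 and edgeR 4. Epha4 was called under 6 and Ephb3 under 2 of 24 alternatives. The TG_AAV libraries lay wholly outside the controls for 3 of the 10 (Efnb3, Ephb1 and Ephb2) and for 17.5% of all genes tested. The median log2 difference of the 10 was -0.29, beside -0.003 over all genes tested. Against TG_saline 2 of the 10 were called (Efnb3 and Ephb1), with 6.09% of all genes called. Against WT_AAV 4 were called (Efnb3, Ephb1, Efna5 and Ephb2), with 18.8% of all genes called. There Ephb2 was called under 12 of 25 alternatives and not with a replicate block of these 2 groups, whose same-numbered libraries deviated together, Efna5 lost its call without the 3 libraries rich in Myl7, and Ephb1 lost its call without WT_saline 3, WT_AAV 2 and WT_AAV 3. In the interaction 1 was called (Efnb3), with 0.852% of all genes called. These comparisons share the TG_AAV libraries and hold the values on which the genes were chosen, so nothing is read from the counts.

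**Figure D4:**
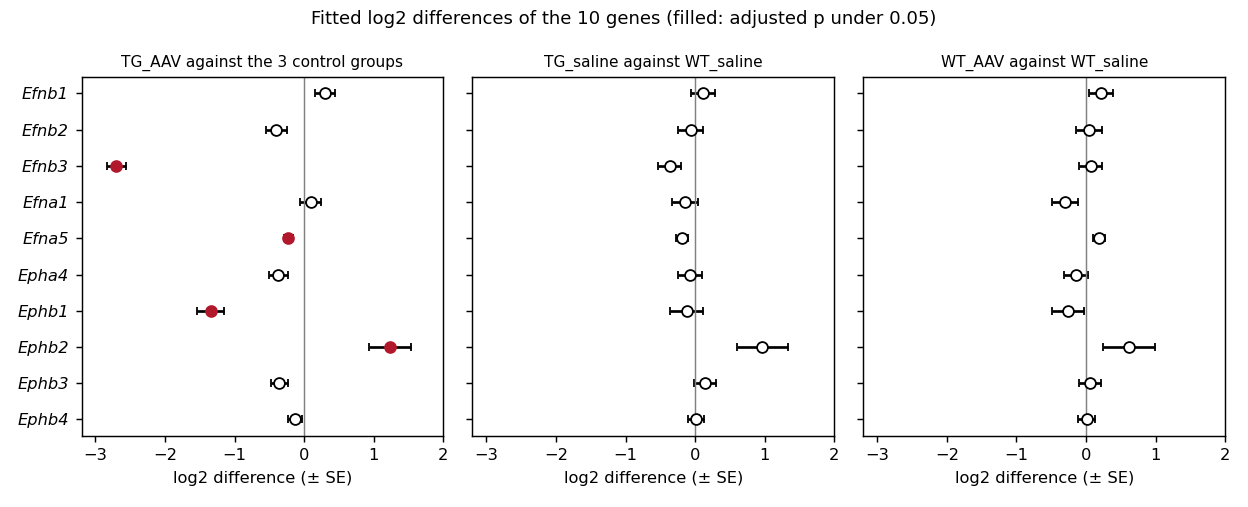
Log2 difference with its standard error for the 10 genes, in the comparisons of TG_AAV against the 3 control groups, TG_saline against WT_saline and WT_AAV against WT_saline; filled points are called genes. Efnb3 stands at -2.70 and Ephb1 at -1.35 with the full system, and the differences of the single components lie between -0.37 and 0.97.

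The transgene and the vector by themselves were compared among the control libraries, without TG_AAV. The genes were chosen with earlier results of these libraries known. For the transgene alone (TG_saline against WT_saline), 0 of the 10 genes were called by limma, edgeR or DESeq2, where limma called 0.0998% of all genes tested. At an unadjusted p under 0.05, limma counted 3 of the 10, edgeR 3 and DESeq2 2, and limma 11.2% of all genes. Ephb2 was the largest difference, at 19.8 ± 3.49 normalized counts in TG_saline hearts and 9.996 ± 3.95 in WT_saline hearts (SD, n = 3 each), a log2 difference of 0.97 (SE 0.37, limma adjusted p = 0.332). Efna5 averaged 250.1 ± 11.1 in TG_saline hearts and 286 ± 2.77 in WT_saline hearts (SD, n = 3 each; log2 difference -0.19, SE 0.09, limma adjusted p = 0.420). For Efna5 and Ephb2 the 3 TG_saline libraries did not overlap the 3 WT_saline libraries, which held for 16.6% of all genes tested. For Ephb1 the difference was -0.12 (SE 0.23, limma adjusted p = 0.896) and for Efnb2 -0.07 (SE 0.18, limma adjusted p = 0.934).

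For the vector alone (WT_AAV against WT_saline), 0 of the 10 genes were called by limma, edgeR or DESeq2, and limma called 0% of all genes tested. At an unadjusted p under 0.05, limma counted 0 of the 10, edgeR 1 and DESeq2 0, and limma 3.94% of all genes. Efna5 averaged 325 ± 14.5 normalized counts in WT_AAV hearts and 286 ± 2.77 in WT_saline hearts without overlap (SD, n = 3 each; log2 difference 0.18, SE 0.09), as 6.06% of all genes tested did not overlap. The adjusted p of the 10 ran from 0.992 to 0.999.

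The other 12 genes complete the family, and 4 of them passed the filter. Efna2, an A-type ligand, had 27.7, 26.9 and 43.8 normalized counts in TG_AAV hearts and 33.8, 39.8 and 37.1 in TG_saline hearts. It had 11.5, 10.1 and 18.2 in WT_AAV hearts and 11.1, 17.2 and 17.4 in WT_saline hearts. All 6 transgenic libraries lay above all 6 wild-type libraries, the reverse of Efna5, and this split too was not counted over all genes tested. Its log2 difference was 1.25 between TG_AAV and WT_AAV (limma adjusted p = 0.00971; 0.0542 without TG_AAV 3) and 1.25 (SE 0.29) between TG_saline and WT_saline, which did not pass (limma adjusted p = 0.106, and 0.0443 with DESeq2). Between TG_AAV and TG_saline it was -0.20 (limma adjusted p = 0.753). Against the 3 control groups it was 0.70 (SE 0.24, limma adjusted p = 0.0497), a call that 13 of 23 alternatives did not keep. The receptors Epha2 (log2 difference -0.24, limma adjusted p = 0.124), Epha7 (-0.40, 0.154) and the kinase-inactive Ephb6 (-0.19, 0.659) did not pass against the 3 control groups.

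Of the 8 family genes below the filter, Epha6 differed most in reads. It had 2 reads in the TG_AAV libraries together, against 9 in TG_saline, 32 in WT_AAV and 28 in WT_saline. The normalized counts were 0.729, 0 and 0.796 in TG_AAV hearts, against 5.80, 1.10 and 1.81 in TG_saline hearts, 19.5, 11.2 and 4.29 in WT_AAV hearts and 7.77, 16.0 and 7.60 in WT_saline hearts. The TG_AAV libraries did not overlap the controls, but this gene was singled out after its values were seen and was not tested. Efna3, Epha5 and Epha10 had at most 5 reads in any group.

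Genes that carry Eph and ephrin signals inside the cell numbered 48 in the table, of which 45 were tested. The list was drawn up with earlier results of these data known. Its calls and p-values in comparisons with TG_AAV hearts, here and in the next paragraph, are therefore given as a description. Between TG_AAV and the 3 control groups 8 rose, 6 fell and 31 did not pass, where 12% of all genes tested rose and 9.69% fell, with a median log2 difference of 0.07 beside -0.003 over all genes. Ptpn13, a phosphatase that binds the tails of B-type ephrins, rose most clearly. It had 362, 354 and 413 normalized counts in TG_AAV hearts. The controls had 223, 259 and 262 in TG_saline hearts and 129 to 210 in the wild-type groups (log2 difference of TG_AAV from the 3 control groups 1.04, SE 0.12, limma adjusted p = 8.19e-05). Src, a kinase recruited to B-type ephrins, had 201, 228 and 229 in TG_AAV hearts, against 83.9 to 183 in the controls (log2 difference 0.95, limma adjusted p = 0.00145). Chn1, a Rac regulator downstream of EphA4, had 443, 442 and 461 in TG_AAV hearts. The controls had 401, 388 and 411 in TG_saline hearts and 318 to 343 in the wild-type groups (log2 difference of TG_AAV from the 3 control groups 0.35, limma adjusted p = 0.00149). None of these 3 genes overlapped its controls, and all 3 were called under each of the 24 alternatives. Kalrn, Sipa1l1 and Ptpn11 rose by 0.57, 0.39 and 0.41 on the log2 scale (limma adjusted p = 0.00756, 0.0103 and 0.0129). Kalrn and Ptpn11 were lost without TG_AAV 1 or without the 3 libraries rich in Myl7, and Sipa1l1 without TG_AAV 2. Against TG_saline alone 4 partners rose (Ptpn11, Kalrn, Ptpn13 and Sipa1l1) and 0 fell with limma, where 6.09% of all genes were called. Src (log2 difference 0.63, limma adjusted p = 0.0904) and Chn1 (0.17, limma adjusted p = 0.230) did not pass there.

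Among the partners that fell was Gja1, which encodes connexin 43, the main gap junction protein of ventricular muscle and a binding partner of B-type ephrins. It had 3356, 3634 and 2647 normalized counts in TG_AAV hearts, against 4460 to 9308 in the controls (log2 difference -0.85, SE 0.18, limma adjusted p = 0.00535, and 0.0504 without the 3 libraries rich in Myl7). Vav2, a guanine nucleotide exchange factor, fell by 0.39 on the log2 scale (limma adjusted p = 0.00318) under each of the 24 alternatives. Arhgef15, another exchange factor that binds Eph receptors, fell by 0.53 (limma adjusted p = 0.00968, lost without TG_AAV 3). Ptprb, an endothelial phosphatase, Vav3 and Inppl1, a lipid phosphatase that binds EphA2, fell by 0.26, 0.29 and 0.22 (limma adjusted p = 0.0177, 0.0212 and 0.0274), each lost without 1 or more TG_AAV libraries. Ptprb was at -0.13 with quantile normalization (limma adjusted p = 0.260). None of these 6 genes passed against TG_saline alone, Gja1 with a log2 difference of -0.78 (limma adjusted p = 0.0600) and Vav2 with -0.22 (limma adjusted p = 0.214). Without the 3 libraries rich in Myl7, 7 partners were called, 4 higher and 3 lower. For the transgene alone and for the vector alone, 0 of the 45 were called by limma.

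Markers of the cell types that could hold these genes were compared between TG_AAV and the 3 control groups, where 12% of all genes tested rose and 9.69% fell. The marker lists too were chosen with earlier results known, so their calls, here and in the next paragraph, are a description. Of 10 heart muscle markers 4 fell (Ryr2 by 0.76, Pln by 0.99, Tnni3 by 0.43 and Tnnt2 by 0.40 on the log2 scale). The summed level of the 10 was 1.674e+06 to 1.800e+06 normalized counts in TG_AAV hearts. It was 1.833e+06 to 2.010e+06 in TG_saline hearts and 2.030e+06 to 2.328e+06 in the wild-type groups. Ttn and Myh6, neither of them called, gave most of it, with 1.135e+06 and 3.437e+05 in TG_AAV 1. With quantile normalization Tnni3 and Tnnt2 were not called. Of 12 endothelial markers 3 fell (Cdh5 by 0.43, Esam by 0.32 and Vwf by 0.49), with sums of 15030 to 17383 in TG_AAV hearts and 16936 to 22313 in the controls. Of 7 arterial markers 1 fell (Nrp1 by 0.43), with sums of 4239 to 4430 in TG_AAV hearts and 5099 to 6942 in the controls. The other 6 were not called, with Gja4 at 0.20 and a median of -0.28 over the 7. Of 9 fibroblast markers 5 rose (Mfap5, Dcn, Serping1, Pdgfra and Col1a2, by 0.34 to 0.92), with sums of 18451 to 21053 in TG_AAV hearts and 12737 to 18212 in the controls. The other 4 were not called, among them Col1a1 at -0.06, Col3a1 at -0.10 and Lum at 0.53, with a median of 0.40 over the 9. Against TG_saline alone, 2 heart muscle markers (Pln and Ryr2), 1 endothelial marker (Cdh5) and 0 arterial markers fell, and 3 fibroblast markers rose (Mfap5, Pdgfra and Dcn). Esam, Vwf, Pdgfra and Col1a2 lost their call without at least 1 TG_AAV library.

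Of 6 tested Schwann and nerve markers 2 rose (Uchl1 by 1.52 and Ncam1 by 0.73) and 1 fell (Dbh, by 2.13 on the log2 scale), with sums of 493 to 632 in TG_AAV hearts and 287 to 489 in the controls. The Ncam1 call was lost without TG_AAV 1 or TG_AAV 2. Of the 8 mural, 4 atrial and 7 macrophage markers 0 passed the test with limma, and their sums overlapped. No marker of any list was at 0 throughout. The part of cell makeup in the levels of the 10 genes was not tested.

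The genes most like Efnb3 over the 12 libraries, by Pearson's r of log2 levels, were Pm20d1 (0.970), Camk2a (0.968), Il15 (0.968), Csl (0.967) and Fitm1 (0.965). Pm20d1 averaged 91.9 ± 22.3 normalized counts in TG_AAV hearts (SD, n = 3) and 235 ± 30.3 in the controls (SD, n = 9). Over the 9 control libraries alone the coefficients of these 5 were lower, at 0.493 for Pm20d1, 0.644 for Camk2a, 0.814 for Il15, 0.681 for Csl and 0.570 for Fitm1. The 5 most like Efnb3 over those 9 were Dcakd (0.972), Erc1 (0.945), Gm5113 (0.945), Trp53inp2 (0.934) and Paqr9 (0.930).

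The neighbours of Efnb3 on chromosome 11 differed less. Of the nearest 2 annotated genes with a row on either side, Kdm6b, a histone demethylase, averaged 313 ± 24.0 normalized counts in TG_AAV hearts (SD, n = 3) and 534 ± 206 in the controls (SD, n = 9). Its log2 difference was -0.68 (SE 0.22, limma adjusted p = 0.0375), and 8 of 24 alternatives did not keep the call, among them the omission of any TG_AAV library. Dnah2 (-0.69, limma adjusted p = 0.143), Wrap53 (-0.32, 0.150) and Trp53 (-0.30, 0.183) did not pass. Of the 10 genes, Efna1 lies on the chromosome of Mef2d, chromosome 3, with 45 protein-coding genes between them.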

How the data were processed

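RNA of cardiac ventricles was sequenced in 12 libraries. The authors deposited a table with 1 row per gene symbol, whose values are normalized counts (a signal, in which each library's reads are scaled by that library's size factor). The submitters' processing notes list Bowtie2 2.0, DESeq2 and the build mm9. No role is listed for any tool, and the annotation, counter and strand setting were not given in the sources used here. Whole reads were recovered from the steps of each column (100% of values above 0 fell on whole reads, at a tolerance of 0.01). Of the symbols, 5583 were at 0 throughout and 27 had been turned into dates.

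The filter kept genes whose mean normalized count was at least 10. limma 3.58.1 (R 4.3.3) was run on log2(normalized count + 1), with a variance trend and 4 group means. Tests were two-sided. Differences on this scale understate changes of low genes. edgeR 4.0.16 and DESeq2 1.42.0 on the recovered reads called 2928 and 3115 genes between TG_AAV and the 3 control groups. Other alternatives were pseudocounts, filters, scalings, a replicate block, an Xist term and omitted libraries. Same-numbered TG_AAV and WT_AAV libraries deviated together (correlations 0.206 to 0.332). Those of WT_saline and WT_AAV were also positive (0.026, 0.146 and 0.253), and the other pairs of groups held both signs. In TG_AAV and WT_AAV alike, number 3 was high in Xist and numbers 1 and 2 in Ddx3y, and number 1 was rich in Myl7. Libraries of unlike number were not compared, the source of the shared deviation was not tested, and the labels give no pairing. The scripts were tested on simulated data.

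The members and gene lists were chosen with earlier results of these data known. Genes were named by a rule: all members, the rest of the family, up to 6 called signalling partners in each direction by p, called markers, the 5 genes most like Efnb3 and its 2 nearest neighbours on each side. Lengths and neighbours came from GENCODE M21, on another build, so no gene coordinates are given, and promoters from RefSeq.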

Additional observations from a re-analysis of the deposited data

Results flagged for a closer look

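The difference that the vector went with in Efnb3 was not the same in transgenic and in wild-type hearts. In transgenic hearts Efnb3 was at 166 ± 38.6 normalized counts with the vector (TG_AAV) and 893 ± 142 with saline (TG_saline). In wild-type hearts it was at 1204 ± 167 with the vector (WT_AAV) and 1152 ± 168 with saline (WT_saline; SD, n = 3 each). The interaction, the first of these vector differences minus the second, was -2.50 on the log2 scale (SE 0.24). It is given as a description, because the low level of Efnb3 in TG_AAV hearts was part of how the genes were chosen.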

How the results depend on the processing

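Of 2441 differences of single genes recomputed under the alternatives, 2310 kept their direction and their side of the threshold, 103 lost a call, 21 gained one and 7 changed sign; 38 sign changes in which both values lay within 1 SE of 0 are among those kept. Between TG_AAV and the 3 control groups the log2 difference ran from -2.87 to -2.56 for Efnb3 and from -1.42 to -1.13 for Ephb1 over 24 alternatives. Without 1 library the number of members called ran from 2 to 6, with 2 without TG_AAV 1, and that of signalling partners from 8 to 17. Without the 3 libraries rich in Myl7, 7 partners were called. For TG_saline against WT_saline, 1 partner was called with DESeq2 and 1 without WT_saline 3, WT_AAV 2 and WT_AAV 3, and 0 to 1 without 1 library. The changes of sign were in uncalled genes. Without the 3 libraries rich in Myl7, Efnb1 was at -0.043 and Efna1 at -0.11 for TG_AAV against WT_AAV, and Efna1 at 0.079 for WT_AAV against WT_saline. Without WT_saline 3, WT_AAV 2 and WT_AAV 3, Efnb2 was at 0.023 and Ephb4 at 0.046 for TG_AAV against WT_AAV, and Efnb2 at -0.31 and Ephb2 at -0.11 for WT_AAV against WT_saline. The causes were not tested. Deviations of same-numbered libraries correlated at -0.158 to 0.332 over 18 pairs, 8 of them over 0.1, so the numbers were not taken to pair all groups; a replicate block called 5 members between TG_AAV and the 3 control groups, with Epha4 added, and 15 partners. The 3 pairs of TG_AAV and WT_AAV were all over 0.1 (0.206 to 0.332). A replicate block in a fit of those 2 groups alone, chosen after seeing the data, called 3 members between them in place of 4, without Ephb2; Efna2 stayed called. Ephb2 and the genes below the filter are limited by their reads.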
